A study of Homo sapiens with 6 samples.

Results

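The genes described here are 44 named genes of protein folding and stress signalling in the endoplasmic reticulum (ER), taken by their symbols from 24462 different gene symbols in bulk RNA-seq count files of a human colon epithelial cell line. ERO1L is entered under its newer symbol ERO1A, and VIMP is the gene also called SELENOS. There are 3 libraries of 1CT and 3 libraries of 1CT-A, and both cell lines carry the cell line label HCEC and a description as progenitor cells of the human colonic epithelium. 1CT has the genotype label WT and the title HCEC 1CT_WT. 1CT-A has the genotype label APC KD and is the line in which wild type APC, the negative regulator of Wnt/β-catenin signalling, is depleted. Both lines are labelled as having no treatment and are cultured in DMEM and M199 medium with EGF, hydrocortisone, insulin, sodium selenite, transferrin, fetal bovine serum and antibiotics. The study received both lines from the same laboratory, 1CT is an immortalized line, and the construct behind 1CT-A and whether it is a single clone are not given in the sources used here. Each cell line stands for its condition once, so the depletion of APC and any other difference between the lines cannot be told apart. The labels do not say whether the 3 libraries of a line come from separate cultures, so the p-values measure the spread between these libraries, which may be technical.

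Proteins that are secreted or inserted in membranes enter the ER through the Sec61 channel and are folded there by chaperones such as BiP (encoded by HSPA5), while disulfide isomerases form and rearrange their disulfide bonds. When unfolded proteins accumulate, the sensors ATF6, IRE1 (ERN1) and PERK (EIF2AK3) start the unfolded protein response, which raises the transcription of chaperone genes through ATF6 and the spliced form of XBP1, slows translation through phosphorylation of eIF2α, and sends misfolded proteins to degradation in the cytosol. The 3′ libraries count reads per gene, so splicing of XBP1, cleavage of ATF6 and phosphorylation of PERK or eIF2α are not measured here.

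The totals run from 7788679 to 8452258 counts in 1CT and from 11158108 to 12602988 counts in 1CT-A. APC itself has 49.3, 43.8 and 46.6 CPM (counts scaled to a library total of 1000000) in 1CT and 31.5, 30.0 and 34.4 CPM in 1CT-A, a log2 fold change of -0.58 (SE 0.09, edgeR adjusted p = 0.000176). The third 1CT library stands apart from the other 1CT libraries. It is the farthest of the 3 for 30 of the 43 members tested (69.8%) and for 50.7% of all genes that reach 10 CPM on average. Of 9 colon epithelial markers, EPCAM and VIL1 have no count in any library, 5 markers have at most 3 counts in every library, and KRT18 is counted in every library (84, 109 and 82 counts in 1CT and 36, 80 and 62 in 1CT-A). KRT19 has 20, 27 and 34 counts in 1CT and 0 in each 1CT-A library. The summed epithelial level ranges over 13.4 to 17.6 CPM (1CT) and over 3.23 to 7.20 CPM (1CT-A). The 9 fibroblast and mesenchymal markers, fibronectin (FN1) among them, are all expressed with a summed level of 44901 to 52937 CPM (1CT) and 22027 to 23421 CPM (1CT-A). FN1 carries this sum. Without it the other 8 sum to 4664 to 5656 CPM (1CT) and 4301 to 4605 CPM (1CT-A). Of them COL3A1 (log2 fold change 2.37) and DCN (0.30) are higher in 1CT-A, and PDGFRB (-0.98), THY1 (-0.91), COL1A1 (-0.59) and VIM (-0.20) are lower. KRT8 has 4, 4 and 14 counts in 1CT and 0, 2 and 8 in 1CT-A. Epithelial defining markers are thus largely absent, with KRT18 in both lines and KRT19 in 1CT as the main exceptions. The part of these marker levels in the results below was not tested. The goblet and secretory markers have no count, and of the immune and endothelial markers only the macrophage marker CD68, with 85 to 121 counts, exceeds 5 counts in a library.

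In 1CT-A, 9 of the 43 members tested are higher than in 1CT and 6 are lower. The higher ones are the chaperones HSPA5 and HSP90B1, the co-chaperones DNAJB11 and SDF2L1, the disulfide enzymes PDIA4, PDIA6 and ERO1A, the secreted protein MANF and the phosphatase subunit PPP1R15B. The lower ones are the membrane-bound transcription factors CREB3 and CREB3L1, the disulfide isomerase P4HB, the degradation adaptor SEL1L, the signal peptidase subunit SPCS3 and the ER membrane protein WFS1. A gene is called where edgeR gives it an adjusted p below 0.05 (quasi-likelihood F test, Benjamini-Hochberg over 12514 genes), and ERN1 is the member that did not pass the filter on low counts. The higher members are 20.9% of those tested beside 25.0% of all genes, the lower members are 14.0% beside 26.0%, and the 15 called members together are 34.9% beside 51.0%. Among genes that reach 10 CPM on average, 15 of 40 members are called (37.5%) beside 54.9% of 8224 genes. The split depends on the scaling of the libraries, with 10 higher and 4 lower members by library size only and 6 higher and 8 lower members with upper-quartile factors. All 12514 genes tested shift in the same direction, with 3441 higher and 3014 lower by library size only and 2681 and 3661 with upper-quartile factors. In bulk samples, fewer cells that express a gene and less RNA of it per cell cannot be told apart.

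**Figure D1:**
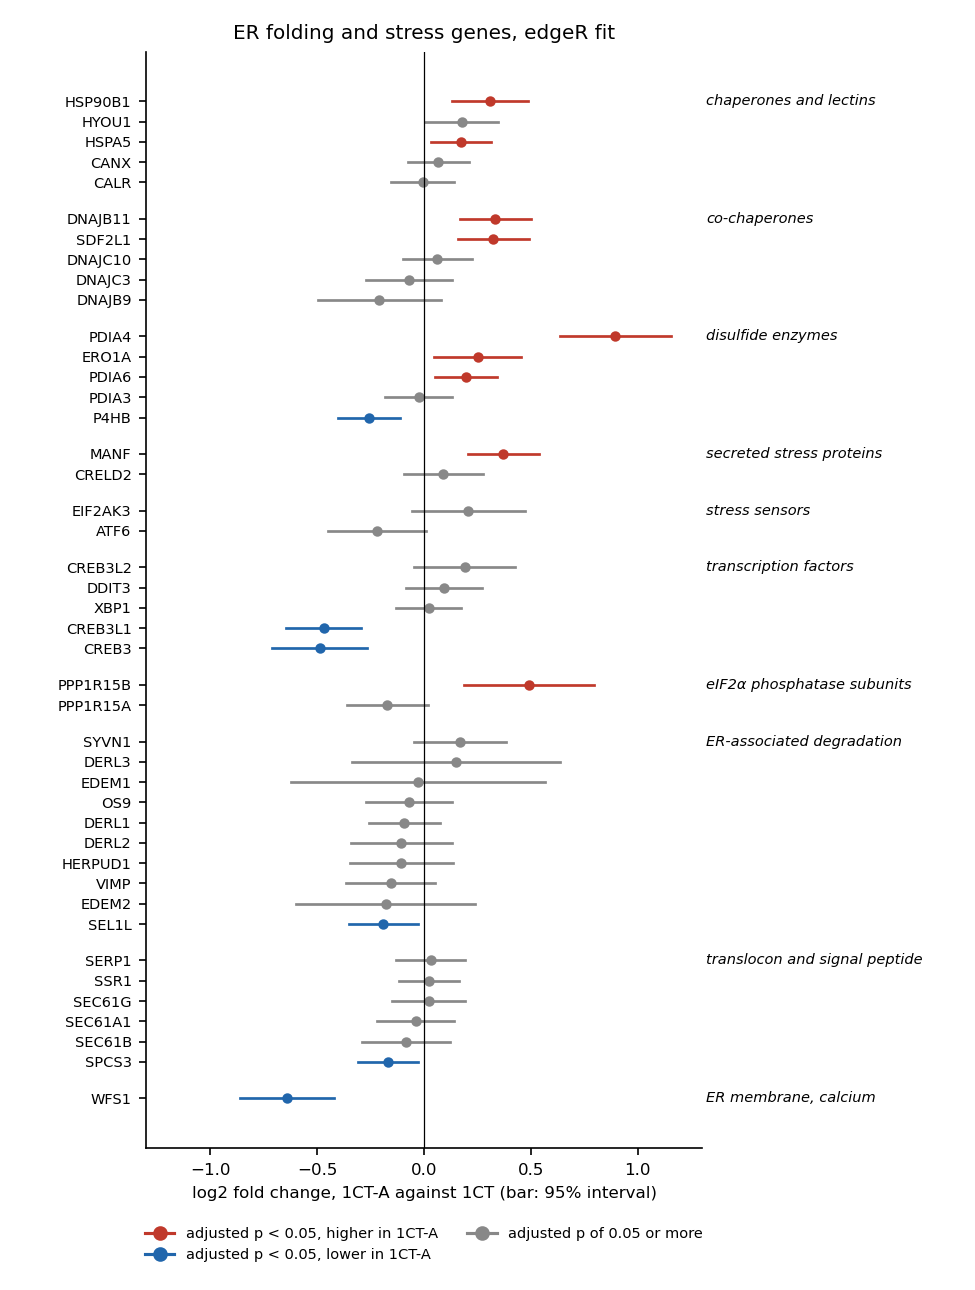
Log2 fold change of each of the 43 members tested, 1CT-A against 1CT (x axis), with genes grouped by role on the y axis, the point as the edgeR estimate and the bar as its 95% interval. PDIA4 at 0.90 and WFS1 at -0.64 lie farthest from 0, and the 28 members in gray that are not called lie between -0.22 and 0.21.

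The differences are small. The median log2 fold change of the 43 members is 0.02 beside -0.01 over all genes tested, and the median absolute value is 0.17 beside 0.36. No member passes the thresholds of the study's methods, a 2-fold difference with an unadjusted p under 0.01, which 13.4% of all genes tested pass by edgeR. DESeq2 and limma-voom also give 0 members there. At an unadjusted p under 0.05 by edgeR, 10 of the 43 members are higher and 6 lower, beside 3509 higher and 3621 lower of 12514 genes tested. PDIA4 and WFS1 are called with an absolute log2 fold change of at least 0.5, which is 4.65% of the members tested beside 32.9% of all genes. Among the 8224 genes that reach 10 CPM on average, the median absolute value is 0.30. Of them, 553 pass the study's thresholds and 2295 are called with an absolute log2 fold change of at least 0.5. For the 40 members at that level these values are 0.17, 0 and 2. The median log2 fold change there, with its sign, is 0.02 for the members and 0.06 for the genes. The libraries of the cell lines do not overlap in CPM for 12 members that are higher (27.9%, beside 31.8% of all genes) and 6 that are lower (14.0%, beside 27.9%). Of the 28 members not called, 25 have a 95% interval of the log2 fold change that lies inside -0.5 to 0.5. The other 3, EDEM1, EDEM2 and DERL3, are among the 4 members with a mean under 10 CPM. All members together take 1.01%, 1.01% and 1.00% of the counts in 1CT and 1.09%, 1.08% and 1.10% in 1CT-A. Without HSPA5 they take 0.773% to 0.799% in 1CT and 0.827% to 0.846% in 1CT-A. FN1 alone takes 4.02% to 4.73% of the counts in 1CT and 1.74% to 1.90% in 1CT-A, and a fall of so abundant an mRNA raises the CPM of other genes, so the fold changes are taken from the fit with TMM normalization.

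The chaperones that are regulated together in the unfolded protein response carry a shared promoter sequence, the ER stress response element (ERSE), spelled CCAAT, then 9 bases of any kind, then CCACG, whose CCAAT part is bound by NF-Y and whose CCACG part is bound by ATF6 or XBP1. The shorter ERSE-II is spelled ATTGG, then 1 base of any kind, then CCACG. An exact ERSE on either strand lies in the promoters of 7 of the 41 members that have a promoter in the RefSeq table (GRCh38.p14, 250 bases before to 50 bases after the start), which is 17.1% of them beside 0.0806% of 27305 promoters. An exact ERSE-II lies in 3 of them (7.32%) beside 0.0549% of all promoters. The elements are shown here because HSPA5, HSP90B1 and SDF2L1 carry them and are higher in 1CT-A while CALR, CANX, CRELD2, XBP1 and HERPUD1 carry them and are not called. Each is printed 5′ to 3′ along the strand of its gene with the element in capitals and 5 bases on each side, so that on the opposite strand an ERSE reads as CGTGG before ATTGG and an ERSE-II as CGTGG before CCAAT.
HSPA5 (chr9:125241386-125241414, minus strand): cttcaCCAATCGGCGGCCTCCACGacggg
HSP90B1, upstream (chr12:103930211-103930239, plus strand): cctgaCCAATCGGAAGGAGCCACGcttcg
HSP90B1, downstream (chr12:103930316-103930344, plus strand): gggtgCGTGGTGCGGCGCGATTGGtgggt
CALR (chr19:12938379-12938407, plus strand): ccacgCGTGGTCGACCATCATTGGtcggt
CANX (chr5:179698773-179698801, plus strand): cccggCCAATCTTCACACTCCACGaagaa
CRELD2 (chr22:49918549-49918577, plus strand): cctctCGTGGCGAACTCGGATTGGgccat
XBP1 (chr22:28800598-28800626, minus strand): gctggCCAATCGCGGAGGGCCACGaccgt
SDF2L1, ERSE-II (chr22:21642109-21642129, plus strand): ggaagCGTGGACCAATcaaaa
HERPUD1, ERSE-II (chr16:56932020-56932040, plus strand): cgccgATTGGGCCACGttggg
The remaining elements are the ERSE of SERP1, which is not called, and a pair of ERSE-II in HYOU1, which is not called either.

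Among the 5 chaperones and lectins, HSPA5 and HSP90B1 are higher in 1CT-A. HSPA5 encodes BiP, the Hsp70 chaperone of the ER lumen, and is the most abundant member in counts. It has 2125, 2153 and 2288 CPM in 1CT and 2634, 2395 and 2570 CPM in 1CT-A. The groups do not overlap, and the means are 2188 ± 87.2 and 2533 ± 124 CPM (SD, n = 3 each), with a log2 fold change of 0.17 (SE 0.07, edgeR adjusted p = 0.0427). This call is lost without 1CT replicate 1 (adjusted p = 0.139), 1CT replicate 2 (0.0957), 1CT-A replicate 1 (0.153) or 1CT-A replicate 3 (0.126).

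HSP90B1 encodes GRP94, the Hsp90 chaperone of the ER. It has 684, 738 and 583 CPM in 1CT and 785, 874 and 894 CPM in 1CT-A. Every 1CT-A library is above every 1CT library, and the log2 fold change is 0.31 (SE 0.08, edgeR adjusted p = 0.00679). HYOU1, a large Hsp70-like chaperone that exchanges the nucleotide of BiP, has 118, 117 and 115 CPM in 1CT and 144, 123 and 137 CPM in 1CT-A. Its libraries do not overlap either, but at a log2 fold change of 0.18 (SE 0.08) its adjusted p of 0.0781 in edgeR does not pass. HYOU1 is called higher by library size only (adjusted p = 0.0323), without a filter (0.0310) and without 1CT-A replicate 2 (0.0336). The lectin chaperones calreticulin and calnexin, which hold glycoproteins during folding, are not called. The log2 fold change of CALR is -0.01 with a 95% interval from -0.15 to 0.14, and that of CANX is 0.07 with an interval from -0.08 to 0.21.

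Of the 5 co-chaperones, DNAJB11 and SDF2L1 are higher. DNAJB11 encodes ERdj3, which hands unfolded proteins to BiP, and has 122, 126 and 125 CPM in 1CT and 171, 148 and 164 CPM in 1CT-A. The 1CT libraries lie within a narrow range below all 1CT-A libraries, and the log2 fold change is 0.33 (SE 0.08, edgeR adjusted p = 0.00285). SDF2L1, a partner of ERdj3, has 127, 132 and 145 CPM in 1CT and 179, 169 and 171 CPM in 1CT-A. It separates the lines in the same direction, with a log2 fold change of 0.32 (SE 0.08, edgeR adjusted p = 0.0034). The other J-domain proteins are not called. DNAJB9 (ERdj4) has a log2 fold change of -0.21, DNAJC3 (p58IPK) of -0.07 and DNAJC10 (ERdj5, a disulfide reductase) of 0.06, and the libraries of DNAJC10 lie close together within each line, at 66.8 to 67.9 CPM (1CT) and 71.3 to 73.6 CPM (1CT-A).

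The disulfide enzymes differ in direction, with 3 of 5 higher and 1 lower. PDIA4 encodes ERp72, a disulfide isomerase of the BiP complex, and is placed at chr7:149003062-149028662, minus strand, by GENCODE release 44 on GRCh38. It has 152, 147 and 105 CPM in 1CT and 223, 277 and 274 CPM in 1CT-A. The means are 135 ± 25.9 and 258 ± 30.5 CPM (SD, n = 3 each) without overlap, and the log2 fold change of 0.90 (SE 0.12, edgeR adjusted p = 4.55e-05) is the largest of the members. Even so, 16.9% of all genes tested have a larger absolute log2 fold change. The third 1CT library is the lowest, and without it the log2 fold change is 0.76 (edgeR adjusted p = 1.01e-06). The promoter of PDIA4 has no exact ERSE or ERSE-II. It holds 3 CCAAT and 1 CCACG counted on both strands. The CCACG, on the opposite strand (CGTGG), and the nearest CCAAT before it are shown in capitals, with 16 bases between them.
PDIA4 (chr7:149028521-149028550, minus strand): tgCCAATcgccggggacgacttcCGTGGgt

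PDIA6, another disulfide isomerase, has 531, 564 and 486 CPM in 1CT and 594, 626 and 638 CPM in 1CT-A. All 1CT-A libraries are above those of 1CT, with a log2 fold change of 0.19 (SE 0.07, edgeR adjusted p = 0.028). This call is lost without 1CT replicate 1, 1CT-A replicate 2 or 1CT-A replicate 3, with adjusted p-values up to 0.108. ERO1A, the oxidase that passes electrons from disulfide isomerases to oxygen, has 52.9, 58.9 and 46.0 CPM in 1CT and 60.8, 64.3 and 67.8 CPM in 1CT-A. The closest libraries of the lines are 58.9 and 60.8 CPM, so the groups are separated by a narrow gap, and the log2 fold change of 0.25 (SE 0.09, edgeR adjusted p = 0.0404) loses its call without 1CT replicate 1, 1CT replicate 3, 1CT-A replicate 2 or 1CT-A replicate 3.

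P4HB goes the other way. It encodes the disulfide isomerase PDI, which is also the β subunit of collagen prolyl 4-hydroxylase. It has 378, 393 and 419 CPM in 1CT and 345, 336 and 342 CPM in 1CT-A, with every 1CT-A library below every 1CT library and a log2 fold change of -0.26 (SE 0.07, edgeR adjusted p = 0.00613). PDIA3 (ERp57), the isomerase that works with calreticulin and calnexin, is not called at -0.03, with a 95% interval from -0.18 to 0.13. Its processed copy PDIA3P1 has counts equal to 13.6% of those of PDIA3, so reads of these near-identical sequences may be divided between them and the value is uncertain.

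**Figure D2:**
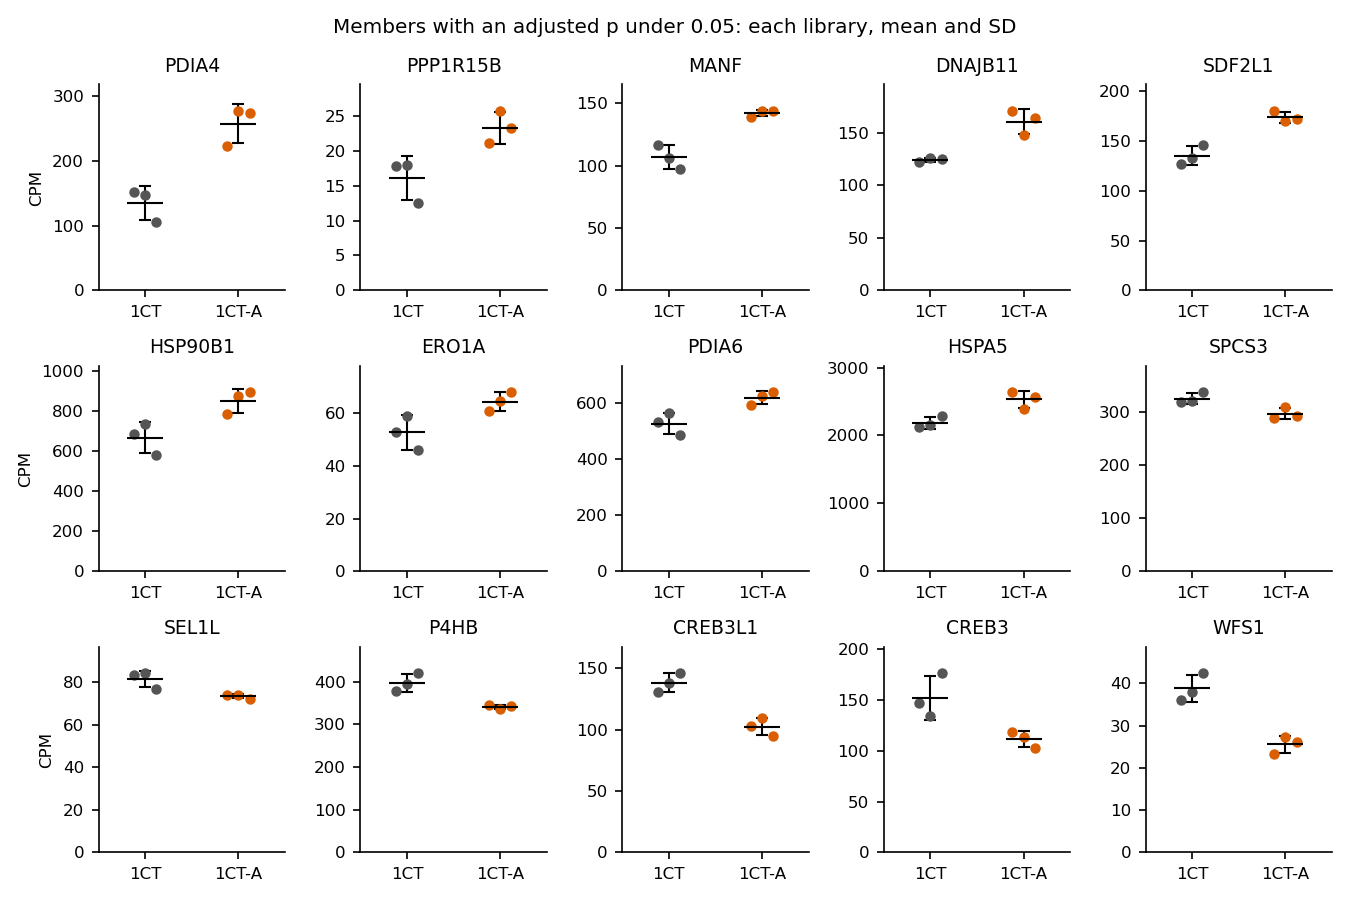
CPM (y axis, from 0) of the 15 called members in each library of 1CT (gray points, replicates 1 to 3 from left to right) and 1CT-A (orange points), with the mean as a horizontal line and the SD over 3 libraries as a bar. The points of the lines do not overlap in any of the 15 panels, and PDIA4 goes from a mean of 135 to 258 CPM while HSPA5 goes from 2188 to 2533 CPM.

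Of the pair of small secreted proteins that ER stress induces, MANF is higher and CRELD2 is not called. MANF, a cofactor of BiP that retains it in its client-bound state, has 117, 106 and 97.6 CPM in 1CT and 139, 144 and 144 CPM in 1CT-A. The 1CT-A libraries lie within a few CPM of each other and above all 1CT libraries, and the log2 fold change is 0.37 (SE 0.08, edgeR adjusted p = 0.0014). CRELD2 has a log2 fold change of 0.09 (SE 0.09, edgeR adjusted p = 0.405), and without 1CT replicate 3 it passes the threshold.

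The mRNAs of the sensors do not pass the test, although ATF6 passes as lower with upper-quartile factors (log2 fold change -0.28, adjusted p = 0.0470). ERN1 (IRE1) has no count in 5 libraries and 1 count in 1CT-A replicate 3, so its level is under the limit of 3 counts in every library, which is 0.238 to 0.385 CPM. ATF6 has 27.7, 29.1 and 30.7 CPM in 1CT and 22.9, 28.6 and 25.6 CPM in 1CT-A. Its groups overlap, and the log2 fold change is -0.22 with a 95% interval from -0.45 to 0.01 (edgeR adjusted p = 0.101). EIF2AK3 (PERK) has 18.1, 22.6 and 18.4 CPM in 1CT and 25.3, 21.2 and 23.6 CPM in 1CT-A, which overlap as well, with a log2 fold change of 0.21 (SE 0.12, edgeR adjusted p = 0.177).

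Of the transcription factors at the ends of these branches, the members XBP1 and DDIT3 are not called. ATF4 of the PERK branch, which is not a member, is higher as given below. XBP1, the target of IRE1, has 137, 149 and 139 CPM in 1CT and 142, 150 and 151 CPM in 1CT-A. The libraries of the lines are interleaved, and the log2 fold change is 0.02 with a 95% interval from -0.13 to 0.17 (edgeR adjusted p = 0.816). DDIT3, which encodes the stress-induced factor CHOP, has 46.5, 45.8 and 47.5 CPM in 1CT and 52.8, 49.0 and 51.4 CPM in 1CT-A. All 1CT-A libraries are above all 1CT libraries in CPM, but the log2 fold change after normalization is 0.09 with a 95% interval from -0.08 to 0.27 (edgeR adjusted p = 0.362).

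CREB3 and CREB3L1, in contrast, are lower. Both encode factors that are anchored in the ER membrane, released by cleavage in the Golgi, and related in structure to ATF6. CREB3 has 147, 134 and 176 CPM in 1CT and 118, 114 and 103 CPM in 1CT-A. The third 1CT library is the highest, the groups do not overlap, and the log2 fold change is -0.49 (SE 0.10, edgeR adjusted p = 0.00154), or -0.35 without 1CT replicate 3. CREB3L1, known for driving collagen secretion, has 130, 138 and 146 CPM in 1CT and 103, 109 and 94.9 CPM in 1CT-A, with a log2 fold change of -0.47 (SE 0.08, edgeR adjusted p = 0.000324). The related CREB3L2 has a log2 fold change of 0.19 and does not pass (edgeR adjusted p = 0.162). Its lowest library is the third of 1CT at 80.0 CPM, and it is called higher without a filter (adjusted p = 0.0234) and without 1CT replicate 1 (0.0347).

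The phosphatase subunits that bring protein phosphatase 1 to eIF2α differ in direction. PPP1R15B, the constitutive subunit, has 17.9, 18.0 and 12.5 CPM in 1CT and 21.1, 25.6 and 23.2 CPM in 1CT-A. The third 1CT library is again the lowest, and the log2 fold change is 0.49 (SE 0.14, edgeR adjusted p = 0.0106), or 0.36 without that library. PPP1R15A (GADD34), the subunit that stress induces, has a log2 fold change of -0.17 and is not called (edgeR adjusted p = 0.119), but passes as lower with upper-quartile factors (adjusted p = 0.0457).

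Of the 10 genes of ER-associated degradation, 1 is lower and 9 are not called. SEL1L, the adaptor of the ubiquitin ligase HRD1, has 83.3, 84.0 and 76.9 CPM in 1CT and 73.9, 73.7 and 72.2 CPM in 1CT-A. The groups are separated, at a log2 fold change of -0.19 (SE 0.07, edgeR adjusted p = 0.0486), and the call is lost without any single library other than 1CT replicate 3. The ligase itself, SYVN1, has a log2 fold change of 0.17 and is not called. HERPUD1 (-0.11), the channel-forming DERL1 (-0.09) and DERL2 (-0.11), the lectin OS9 (-0.07) and VIMP (-0.16), which recruits the p97 ATPase, are not called either. The mannosidase-like EDEM1 has 8.28, 7.61 and 2.95 CPM in 1CT and 5.83, 6.85 and 6.43 CPM in 1CT-A. The third 1CT library has less than any other library, and the 95% interval of its log2 fold change, -0.62 to 0.57, is the widest of the members. Without that library HERPUD1, VIMP and the translocon gene SEC61B pass the threshold as lower, which gives 9 higher and 8 lower members.

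The channel through which proteins enter the ER shows no called subunit. The log2 fold changes are -0.04 for SEC61A1, -0.08 for SEC61B and 0.02 for SEC61G, the subunits of Sec61, 0.02 for SSR1 of the associated TRAP complex and 0.03 for SERP1, which stabilizes membrane proteins under stress. SPCS3, a subunit of the signal peptidase, has 320, 321 and 338 CPM in 1CT and 290, 310 and 294 CPM in 1CT-A. The groups do not overlap, and the log2 fold change of -0.17 (SE 0.07, edgeR adjusted p = 0.0429) holds in 4 of the 14 alternative fits.

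WFS1 has the largest fall. It encodes wolframin, an ER membrane protein linked to calcium homeostasis and to Wolfram syndrome, and is placed at chr4:6269849-6303265, plus strand, by the same annotation. It has 36.1, 38.0 and 42.4 CPM in 1CT and 23.2, 27.3 and 26.1 CPM in 1CT-A. The means are 38.8 ± 3.22 and 25.5 ± 2.1 CPM (SD, n = 3 each) without overlap, and the log2 fold change is -0.64 (SE 0.10, edgeR adjusted p = 0.000179). A larger absolute log2 fold change is found for 27.3% of all genes tested.

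**Figure D3:**
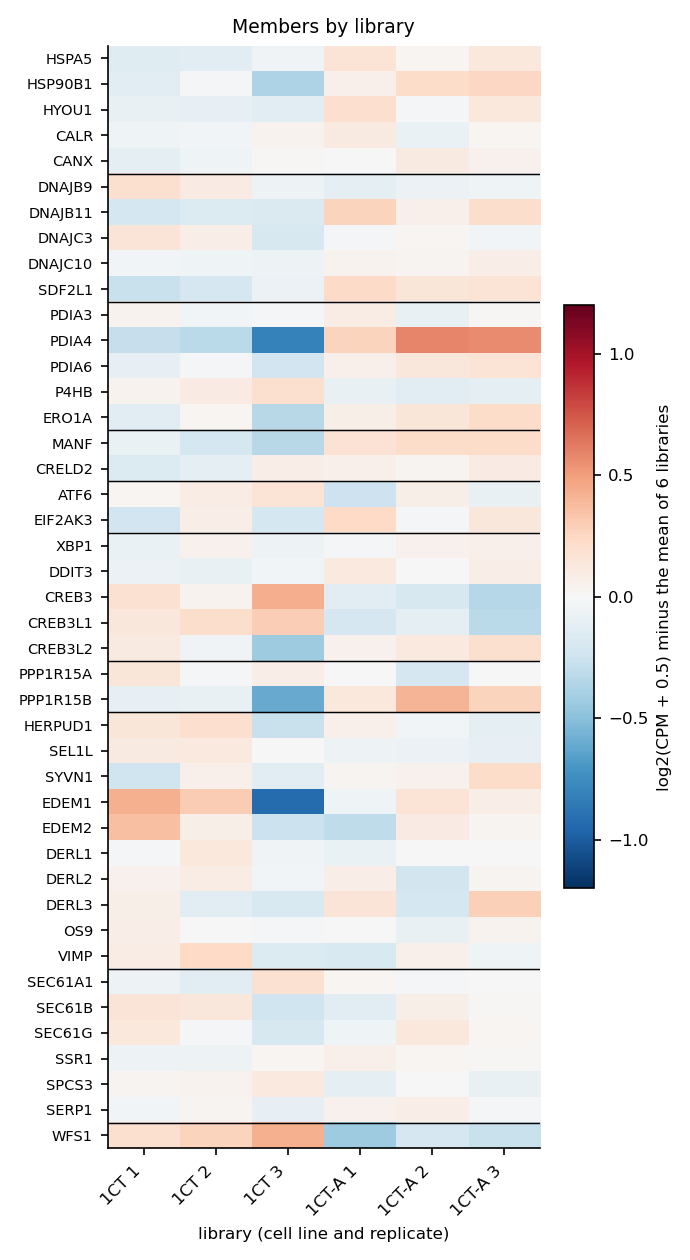
Level of each of the 43 members tested (rows, grouped by role with lines between groups) in each of the 6 libraries (columns), as log2(CPM + 0.5) minus the mean of the 6 libraries, red for above and blue for below. The third 1CT library differs from the other 1CT libraries in many rows, most clearly in EDEM1 at 2.95 CPM, PDIA4 at 105 CPM and PPP1R15B at 12.5 CPM.

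The calls of 10 of the 15 members, HSP90B1, DNAJB11, SDF2L1, PDIA4, P4HB, MANF, CREB3, CREB3L1, PPP1R15B and WFS1, stand at an adjusted p under 0.05 in all 14 alternative fits, which change the scaling, the filter, the tool or the block or leave out 1 library. The calls of HSPA5, PDIA6, ERO1A, SEL1L and SPCS3 are lost in some of them, and all 15 keep their sign. PPP1R15B stands by a very narrow margin, since its edgeR adjusted p reaches 0.049998 when a library is left out. An exact permutation test of a single gene, two-sided, cannot go below p = 0.1 with 3 libraries against 3, so the calls rest on the model across all genes. At the 3′ end, where these libraries read, 18 members have another annotated gene over the last 1000 bases of their gene model, 3 of them on the same strand (DNAJB11, SYVN1 and OS9). On the opposite strand HSP90B1 overlaps UQCC6 there, PDIA6 overlaps ATP6V1C2, CREB3 overlaps GBA2, PPP1R15B overlaps PPP1R15B-AS1, and WFS1, P4HB and ERO1A overlap genes annotated without a symbol. The sources used here do not give the strand setting of the counting, so these counts are uncertain.

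Read by promoter element, 2 of the 7 members with an exact ERSE are higher and 0 are lower by edgeR, beside 25.0% and 26.0% of all genes. Of the 33 other members with a promoter that were tested, 7 are higher and 6 are lower. The median log2 fold change is 0.07 with an ERSE and -0.04 without one. Of the 3 members with an ERSE-II, SDF2L1 is higher and HYOU1 and HERPUD1 are not called. Among genes outside the members with an exact ERSE, EIF2A (log2 fold change 0.43) is higher and ERO1B (-1.13) is lower. ERO1B has only 9 to 24 counts in a library. Its call is lost in DESeq2 (adjusted p = 0.0924), and its edgeR adjusted p reaches 0.0920 when a library is left out. Outside the members with an ERSE-II, SHCBP1 (0.86) and ZNF143 (0.66) are higher and NUCB1 (-0.64) and PLS3 (-0.38) are lower. The other such genes tested are not called. The core of the unfolded protein response element, TGACGTGG, lies in the promoters of HYOU1, where it overlaps an ERSE-II, and of DNAJC10, and in 0.795% of all promoters. The C/EBP-ATF response element that ATF4 binds, searched as TGATGNAA, lies in the promoters of PPP1R15B and HERPUD1. These are 4.88% of the 41 members with a promoter, beside 3.67% of all promoters. The site of HERPUD1, which is not called, lies on the opposite strand, and that of PPP1R15B is printed below. A match to these letters is a description of the sequence and not a measured binding site.
PPP1R15B (chr1:204412032-204412049, minus strand): ccggcTGATGCAAcctca

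**Figure D4:**
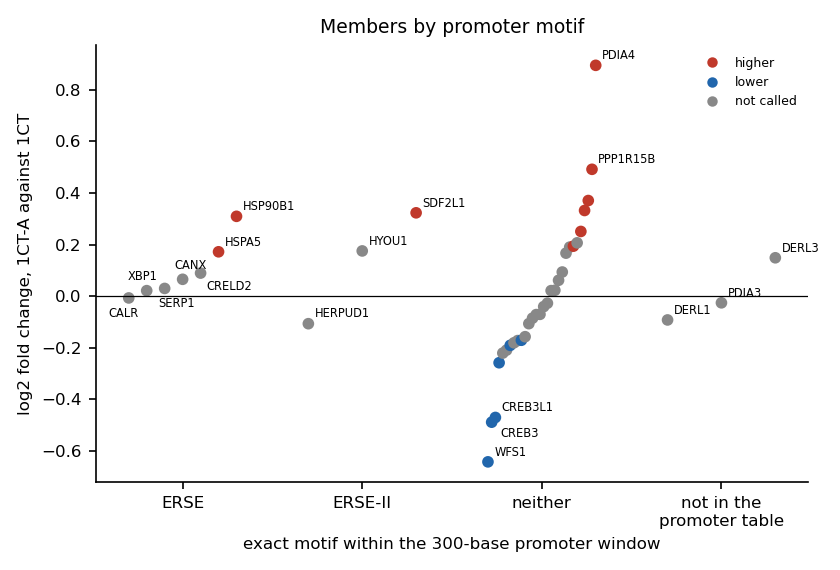
Log2 fold change, 1CT-A against 1CT (y axis), of the 43 members tested, by whether the promoter window of 300 bases holds an exact ERSE, an ERSE-II or neither, or is not in the promoter table (x axis; points spread sideways in order of value), colored by call. The ERSE members lie between CALR at -0.01 and HSP90B1 at 0.31, and both PDIA4 at 0.90 and WFS1 at -0.64 hold neither element.

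Of 164 other ER genes tested in 8 lists, 25 are higher (15.2%, beside 25.0% of all genes) and 46 are lower (28.0%, beside 26.0%). This split moves with the scaling and the filter, to 30 higher and 38 lower by library size only, 17 and 64 with upper-quartile factors, and 33 and 36 without a filter. The split of all genes moves with the scaling too, as given above. Of 20 other translocation genes, 4 are higher and 2 lower, with the signal peptidase subunits SEC11A (log2 fold change 0.50) and SPCS2 (0.44) and the signal recognition particle subunit SRP9 (0.42) as the largest. SPCS3, a subunit of the same peptidase, is lower as given above. Of 25 genes of N-glycosylation and glycan trimming, 4 are higher and 5 lower, with TUSC3 (-0.80) of the oligosaccharyltransferase, the glucosyltransferase homolog UGGT2 (-0.60) and the glucosyltransferase ALG6 (0.53) as the largest. Of 20 other disulfide enzymes, 5 are higher and 5 lower, among them the sulfhydryl oxidase QSOX2 (0.99), the transmembrane thioredoxin TMX3 (0.67) and the selenoprotein SELM (-0.67).

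Of 29 other genes of ER-associated degradation, 5 are higher and 7 lower. The largest called ones that reach 10 CPM on average are the lectin ERLEC1 (-0.58), HERPUD2 (-0.43) and UBXN8 (0.43). Below that level, RNF185 (-0.60) and FAM8A1 (-0.54) are lower. Of 21 prolyl isomerases and collagen-modifying enzymes, 3 are higher and 6 lower. The prolyl 3-hydroxylase P3H2 has 40.3, 59.9 and 47.5 CPM in 1CT and 20.1, 26.3 and 19.0 CPM in 1CT-A, a log2 fold change of -1.22 (SE 0.15, edgeR adjusted p = 2.03e-05). P4HA2, a catalytic subunit that pairs with P4HB in collagen prolyl 4-hydroxylase, has 176, 179 and 185 CPM in 1CT and 94.7, 111 and 108 CPM in 1CT-A, a log2 fold change of -0.82 (SE 0.08, edgeR adjusted p = 1.94e-06). The alternative catalytic subunit P4HA1, which is expressed at a similar mRNA level (135, 149 and 124 CPM in 1CT and 117, 132 and 128 CPM in 1CT-A), overlaps between the lines and is not called at -0.15 (edgeR adjusted p = 0.137). The prolyl isomerase FKBP7 is higher at 0.58.

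The lists of ER exit, calcium and ER-phagy hold more lower than higher genes, also in each of the 14 alternative fits, and whether they differ from genes at large was not tested. Of 25 genes of ER exit and retrieval, 2 are higher (8%, beside 25.0% of all genes) and 10 lower (40%, beside 26.0%), with the KDEL receptor KDELR3 (-0.65) and the COPII coat subunits SEC31A (-0.62) and SEC24A (-0.55) as the largest. Of 16 genes of the ER calcium store, 2 are higher (12.5%) and 7 lower (43.8%). The largest called ones that reach 10 CPM on average are the calcium-binding NUCB1 (-0.64) and the calcium sensors STIM2 (0.55) and STIM1 (-0.41). Below that level, ITPR2 (-1.46), RCN3 (-1.35) and ITPR1 (-0.73) are lower. Of 8 ER-phagy receptors, 4 are lower (50%), with CCPG1 (-0.47) and FAM134C (-0.43) as those that reach 10 CPM on average. The medians of these lists are -0.18, -0.12 and -0.33, beside -0.01 for all genes and 0.06 for genes that reach 10 CPM on average.

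Another list holds genes of the integrated stress response, the branch that runs through PERK, eIF2α and ATF4 and that amino acid shortage also starts. It holds translation factors and eIF2α kinases besides ATF4 and its targets. Of 19 genes tested, 9 are higher (47.4%, beside 25.0% of all genes) and 2 are lower (10.5%, beside 26.0%), with a median log2 fold change of 0.16. Split by role after the values were seen, 5 of 12 targets are higher (41.7%) and 1 is lower (8.33%), and of 6 translation factors and kinases EIF2S1, EIF2B1 and EIF2B5 are higher and EIF2AK4 is lower. ATF4 itself has 277, 282 and 321 CPM in 1CT and 439, 385 and 391 CPM in 1CT-A, and every 1CT-A library is above every 1CT library at a log2 fold change of 0.43 (SE 0.08, edgeR adjusted p = 0.000832). The serine synthesis enzyme PSAT1 has 25.7, 31.6 and 25.3 CPM in 1CT and 52.2, 59.4 and 57.8 CPM in 1CT-A, a log2 fold change of 1.00 (SE 0.10, edgeR adjusted p = 4.22e-06). The transcription factors CEBPG (0.71) and CEBPB (0.65) follow, and then SLC7A11 (0.53) and DDIT4 (0.46). The member DDIT3, a target of ATF4 too, is not called at 0.09. Of the targets in the list, ATF5 (0.13), ASNS (0.13), TRIB3 (0.10), SESN2 (0.07), CHAC1 (-0.26) and ATF3 (-0.38) are not called either, and NUPR1 (-0.28) is lower.

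Chaperones outside the ER are mostly higher. Of 18 cytosolic and mitochondrial chaperones, 11 are higher (61.1%, beside 25.0% of all genes) and 1 is lower (5.56%, beside 26.0%). Their median log2 fold change is 0.34, beside 0.02 for the ER members and -0.01 for all genes. Genes that reach 10 CPM on average have a median of 0.06, and 31.4% of them are higher and 23.4% lower. Whether they differ from genes at large was not tested. The mitochondrial chaperonin HSPD1 has 503, 461 and 430 CPM in 1CT and 819, 783 and 815 CPM in 1CT-A, a log2 fold change of 0.76 (SE 0.07, edgeR adjusted p = 1.5e-06). Its partner HSPE1 has a log2 fold change of 0.75, and HSPA1B, a heat-inducible Hsp70 with a near-identical copy in HSPA1A that makes its count uncertain, has 0.53.

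**Figure D5:**
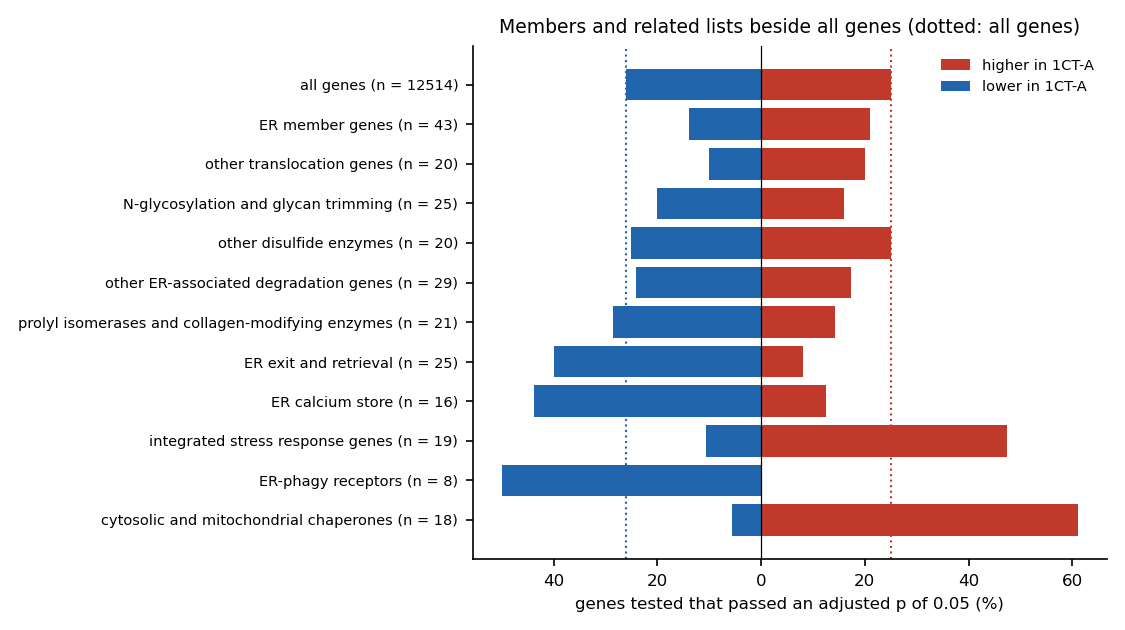
Share of the genes tested in each list (rows, n is the number tested) that are higher (red, to the right) or lower (blue, to the left) in 1CT-A by edgeR's adjusted p, in percent, with dotted lines at the shares of all genes. The ER members have 20.9% higher and 14.0% lower, the cytosolic and mitochondrial chaperones 61.1% higher, and 4 of the 8 ER-phagy receptors are lower.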

How the data were processed

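The authors deposited 1 file of raw read counts per gene symbol for each of the 6 QuantSeq 3′ libraries, without normalization or pooling. The submitters' processing notes name Bowtie2, edgeR and hg19, with roles, annotation and strand setting not given in the sources used here. Each file has 25737 entries, and 286 symbols entered repeatedly were summed (no member among them). Positions come from GENCODE release 44 on GRCh38 and promoters from RefSeq on GRCh38.p14, so they describe these annotations and not the authors' counting. CPM are counts scaled to a file total of 1000000.

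The counts were fitted with edgeR 4.0.16 in R 4.3.3 (TMM factors 0.976 to 1.02, filterByExpr with a minimum count of 10, quasi-likelihood F test between the lines, Benjamini-Hochberg over 12514 genes, adjusted p under 0.05). SE is the absolute log2 fold change over the square root of F. The test was checked on simulated counts. Replicates differ by more than counting noise, and a level under 3 counts was taken as not visible, for counting error only. Members and related lists were chosen with earlier results of these data known. Values per library are given for HSPA5, HSP90B1, ATF6, ERN1, EIF2AK3, XBP1, DDIT3 and all other called members. In each related list the 3 largest called genes that reach 10 CPM on average are named, and ATF4. Other values were chosen after they were seen. Alternatives were DESeq2 1.42.0, limma-voom (limma 3.58.1), 3 other scalings, 2 other filters, a replicate block, a stricter threshold and each library left out.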

Additional observations from a re-analysis of the deposited data

How the results depend on the processing

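With the replicate number as a block, 6 members are higher and 4 lower, since HSPA5 (adjusted p = 0.0762), PDIA6, ERO1A, SEL1L and SPCS3 are no longer called. Same-numbered libraries do not deviate together (correlations from -0.161 to 0.220 over 8224 genes, and up to 0.345 between other numbers), so the numbers are not taken as pairs. At an adjusted p under 0.01, 5 members are higher and 4 lower. Of the 183 related genes of the ER and the integrated stress response, 21 are higher and 25 lower there, beside 34 and 48 at 0.05. Of these, 40 are higher and 40 lower by library size only, 25 and 66 with upper-quartile factors and 42 and 38 without a filter. Over all genes the same fits give 3441 and 3014, 2681 and 3661, and 3674 and 3564, the last of 19169 genes tested. The median of the members is -0.0347 with upper-quartile factors and 0.0673 without a filter. The median of all genes tested is -0.12 in DESeq2, which tests 15452 genes, beside -0.01. Leaving out each library in turn gives 6 to 9 higher and 4 to 8 lower members, a median of 0.00497 to 0.0238, 24 to 36 higher and 30 to 54 lower related genes (30 without 1CT-A replicate 3), 2597 to 3252 higher and 2767 to 3299 lower genes in all, and 0 members past 2-fold.

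Members near 0 change sign without being called. In log2 fold change, by library size only CALR has 0.0309, EDEM1 0.0090 and PDIA3 0.0117. Without a filter CALR has 0.0392, EDEM1 0.0184, PDIA3 0.0203 and SEC61A1 0.00545. DESeq2 gives CALR 0.0154 and EDEM1 0.000778, limma-voom gives EDEM1 0.0850, and the replicate block gives EDEM1 0.0326. Upper-quartile factors give SEC61G -0.0339, SERP1 -0.0259, SSR1 -0.0338 and XBP1 -0.0347. Leaving out 1 library gives CALR -0.0531 to 0.0476, EDEM1 -0.342 to 0.220, PDIA3 -0.0692 to 0.0301, SEC61A1 -0.104 to 0.0758, SEC61G -0.0399 to 0.101 and XBP1 -0.00638 to 0.0610. The causes were not tested. Low counts limit EDEM1, EDEM2 and DERL3 most.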
